A study of Oryza sativa with 12 samples.

Results

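Photosynthesis genes of the nucleus and genes of chlorophyll synthesis were followed across germinating rice seeds as a marker of the greening shoot. The list held 49 loci of the RAP rice annotation: light-harvesting proteins, photosystem subunits, electron transport, the Rubisco small subunits with Rubisco activase, Calvin cycle enzymes, chlorophyll synthesis, and the GLK pair of transcription factors. Values were found for 47 of the 49 loci among 35204 gene IDs, and 36 of them passed the test filter of 1 FPKM or more in 3 or more libraries. FPKM scales the fragments counted on a gene by its length and by the depth of the library, so it allows levels to be compared between genes. The loci Os06g0107700 and Os02g0103800 of electron transport were not analysed here. The files do not pair these IDs with gene names, so loci are given by ID and class. The list names its classes in order and gives its loci in that order, and the boundaries between classes were set from published rice locus annotation.

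The seeds were wild-type (WT) Zhonghua 11 and osmft1, a knockout of OsMFT1 whose kind of mutation is not stated and whose libraries are not tied to a line. OsMFT1 is a MOTHER OF FT AND TFL1 gene, a family known for regulating how seeds germinate. Each genotype germinated in water or in a salt solution of 300 mM NaCl, which gave 4 groups of 3 libraries: WT in water, WT in salt, osmft1 in water and osmft1 in salt. All 12 libraries came from surface-sterilised seeds kept on wet filter paper at 28 °C with 15 h of light and 9 h of dark, so every group had light. The labels give no sampling time, so stage of germination and the effects of salt or of the knockout cannot be told apart. They also do not say that replicates were separate seed lots, and p-values therefore reflect only the scatter among these libraries, which may be technical. The sample is a whole seed, and in its RNA fewer shoot cells and less RNA per cell cannot be told apart.

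Light-harvesting proteins bind chlorophyll and pass the absorbed energy to the photosystems, whose subunits and electron carriers turn it into chemical energy for carbon fixation by Rubisco and the Calvin cycle. Chlorophyll is built from tetrapyrrole precursors by a chain of enzymes in the plastid. GLK transcription factors activate many genes of light harvesting and of chlorophyll synthesis. Seeds hold little photosynthetic tissue, and these genes are switched on as the seedling shoot emerges and turns green.

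The libraries held 14379728 to 15688593 counted reads, recovered from the steps between low values, and 1 read on a gene of 1 kb was worth 0.0637 to 0.0695 FPKM. The locus taken as OsMFT1 from published locus numbers, Os06g0498800, had 1 to 8 reads in every library of every group, so its level gave no check of the genotype labels. The tissue label was not checked against markers, since marker loci were to be used where a file names them, and none does. Light-harvesting genes and Rubisco small subunit genes have near-identical copies, and the strand setting of the counting is not stated. Reads of copies or of overlapping genes may therefore have been split or lost.

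The tested loci were expressed at low to moderate levels. Their median level over all libraries was 3.81 FPKM, against 7.02 FPKM over the 22017 IDs tested, and 25 of the 36 lay under the median of the tested IDs. A mean of at least 10 FPKM was reached by 6 loci, and 22 of the 36 had at least 1 FPKM in all 12 libraries. The locus with the highest level was Os01g0279100 of chlorophyll synthesis. The filter removed 11 loci: 4 of light harvesting, 3 photosystem subunits, 3 of the Rubisco class and 1 of the Calvin cycle. It was passed through water libraries alone by Os06g0320500 and Os11g0707000 and through salt libraries alone by Os04g0414700, Os04g0234600 and Os10g0502400, which had to differ in order to pass. The counts below are therefore an account of the loci that passed and not a measure of the whole list. By the level in the library that ranked 3 from the top, the loci just inside the filter were Os04g0459500 at 1.04 FPKM, Os10g0502400 at 1.11 FPKM and Os04g0234600 at 1.19 FPKM. Just outside were Os12g0420400 at 0.930 FPKM, Os01g0720500 at 0.810 FPKM and Os07g0148900 at 0.650 FPKM.

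The water groups were uneven. Replicate 1 of WT in water was the lowest of its 3 libraries for 26 of the 36 loci, against 27.2% of all tested IDs, and replicate 1 of osmft1 in water was the lowest for 23 of the 36, against 25.7%. For light-harvesting loci it was the lowest for 9 of 10 in both genotypes. Without both of these libraries, an alternative added after the data were seen, salt lowered 24 loci and raised 5 in WT and lowered 19 and raised 6 in osmft1, against the counts given next for all libraries. Of all 22017 tested IDs, this alternative called 5904 lower and 6217 higher in WT, and 4581 lower and 4299 higher in osmft1.

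**Figure D1:**
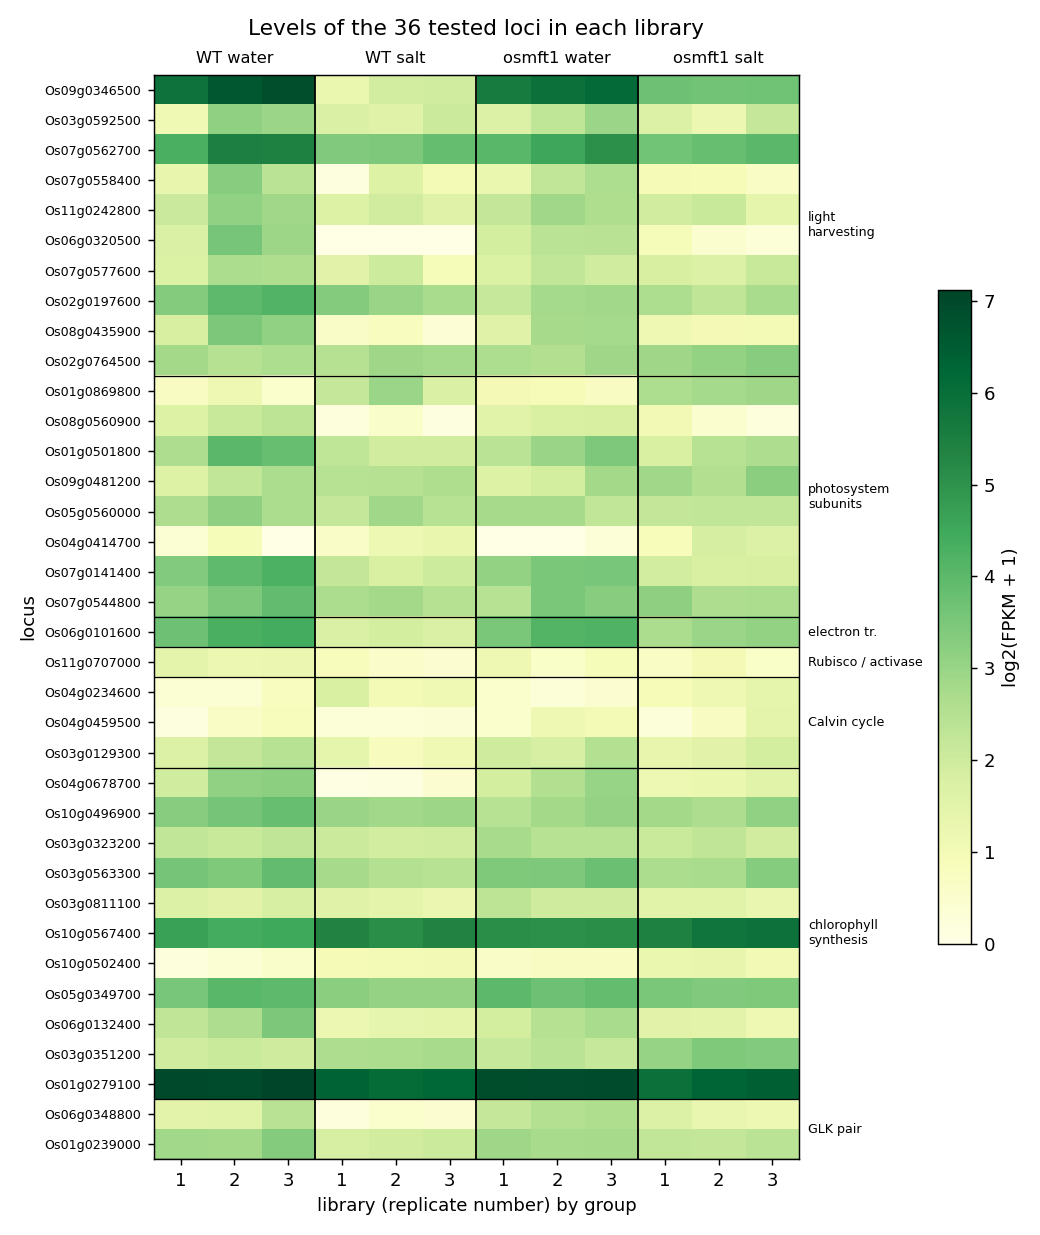
Level of the 36 tested loci (rows, grouped by class) in each of the 12 libraries (columns, by group), as log2(FPKM + 1) in colour. Light-harvesting loci were mostly higher in the water libraries, and the 5 loci that rose in WT under salt run the other way.

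In WT, most of the tested loci fell under salt. With limma on log2(FPKM + 1) and Benjamini-Hochberg adjustment over all tested IDs, 28 of 36 were called at an adjusted p under 0.05. Of these, 23 fell and 5 rose, and the libraries of water and salt did not overlap for 21 of the loci lower and 5 of the loci higher in salt. Over all 22017 IDs, 55.9% were called, with 28.2% lower and 27.7% higher, and 31.1% were lower and 32.8% higher without overlap. The share of loci that fell, 63.9%, was above the 28.2% of the background, and the share that rose, 13.9%, was below 27.7%. The median difference of the 36 loci was -0.80 (log2), against 0.04 over all tested IDs. With no filter on low values, 24 of the 47 loci with values fell and 5 rose, and of the 34126 IDs then tested 6707 fell and 6158 rose.

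In osmft1, salt lowered 16 of the 36 loci and raised 6, and 19 were lower and 6 higher without overlap. Over all IDs, 46.0% were called, with 25.5% lower and 20.5% higher, and 29.8% were lower and 24.6% higher without overlap. The shares of the loci called were 44.4% lower and 16.7% higher. Their median difference was -0.53, against -0.11 over all tested IDs. The difference between the genotypes' responses was tested as an interaction, given further on, and called 2 loci.

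Light-harvesting loci, whose proteins bind chlorophyll, were lower in salt. Of the 10 tested, 8 fell under salt in WT, against 28.2% of all tested IDs, and 4 in osmft1, against 25.5%. None rose in either genotype, against 27.7% and 20.5%. The WT calls of Os07g0558400 and Os07g0577600 were each lost in 6 alternatives (adjusted p up to 0.138 and 0.143). That of Os02g0197600 was lost in 3 (up to 0.0791). At these loci the water and salt libraries of WT overlapped. In osmft1, the call of Os11g0242800 (limma, adjusted p = 0.0490) was lost in 12 alternatives and that of Os08g0435900 in 2. Summed over the 14 listed light-harvesting loci, the level was 105.8, 215.6 and 217.0 FPKM in the 3 WT water libraries, and 31.9 to 37.4 FPKM in WT in salt. It was 88.0 to 144.0 FPKM in osmft1 in water and 45.1 to 51.7 FPKM in osmft1 in salt. Salt libraries lay under water libraries in both genotypes, and the first WT water library stood apart from the other two.

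**Figure D2:**
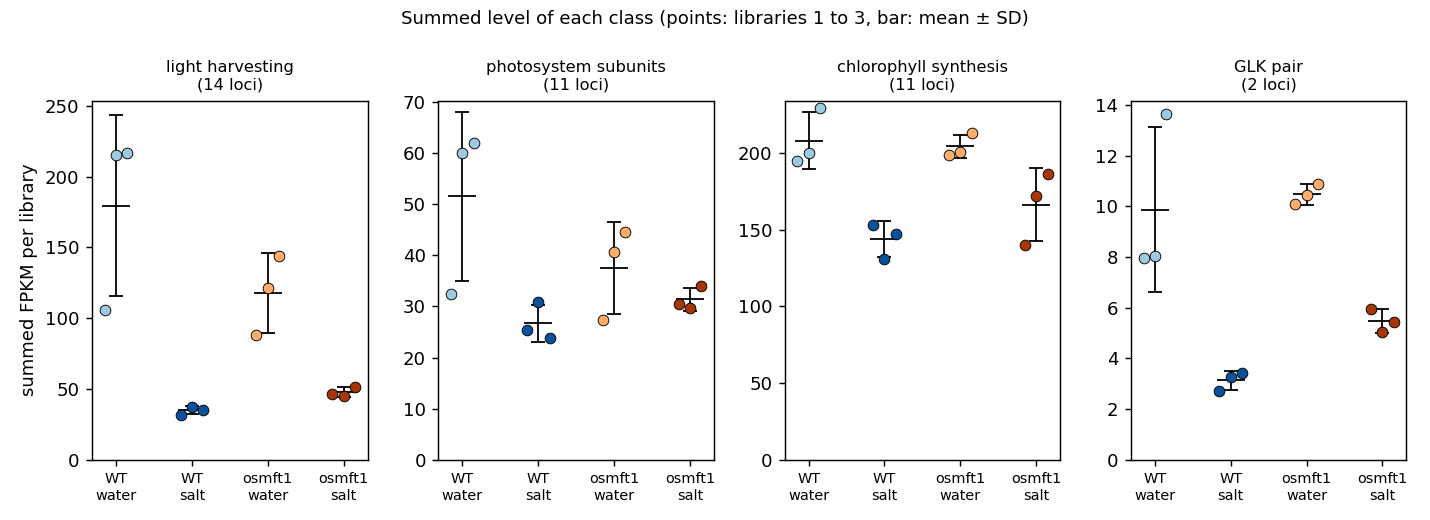
Summed FPKM of the listed loci of 4 classes, 1 point per library with the mean and SD of the 3 libraries of a group. The light-harvesting sum was 179.5 ± 63.8 FPKM in WT in water and 34.9 ± 2.76 FPKM in WT in salt.

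Os09g0346500 made up 45.3% to 55.2% of that sum in water. Its 3 libraries had 57.5, 97.7 and 116 FPKM in WT in water and 1.40, 2.78 and 2.89 FPKM in WT in salt. They had 48.6, 59.9 and 68.2 FPKM in osmft1 in water and 12.2, 11.3 and 11.8 FPKM in osmft1 in salt. Every salt library was far below every water library, and the osmft1 salt libraries lay wholly above the WT salt libraries, while the genotypes overlapped in water. Salt lowered it by 4.74 ± 0.25 (log2, limma, adjusted p = 2.95e-07) in WT and by 2.22 ± 0.25 (adjusted p = 4.00e-05) in osmft1, where the error is the standard error with n = 3 per group.

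Without this locus the light-harvesting sum was 89.2 ± 36.4 FPKM (SD, n = 3) in WT in water, 32.6 ± 2.03 in WT in salt, 58.9 ± 18.3 in osmft1 in water and 36.0 ± 3.44 in osmft1 in salt. The 2 salt groups then overlapped, at 30.5 to 34.6 FPKM in WT and 33.8 to 40.0 FPKM in osmft1. The higher sum of osmft1 in salt thus lay mostly in 1 locus.

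Os07g0562700, the next most abundant of the class, had 18.8, 43.2 and 41.6 FPKM in WT in water and 9.58, 10.1 and 13.4 FPKM in WT in salt. In osmft1 it had 15.6, 22.4 and 31.8 FPKM in water and 11.5, 13.1 and 15.1 FPKM in salt. The water and salt libraries were apart in both genotypes, narrowly so in osmft1. The fall of 1.49 ± 0.31 was called in WT (limma, adjusted p = 0.00154), and the difference in osmft1 was -0.72 with an adjusted p of 0.0751.

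Os02g0197600 differed between the genotypes in water. It had 9.15, 14.4 and 16.8 FPKM in WT in water against 3.47, 5.95 and 6.18 FPKM in osmft1 in water, with no overlap. In salt it had 9.18, 6.90 and 5.49 FPKM in WT and 5.28, 3.77 and 5.48 FPKM in osmft1, again with WT above osmft1, though the lowest WT library all but met the highest of osmft1. The salt difference was not called (limma, adjusted p = 0.332). The water difference was -1.21 ± 0.26 (limma, adjusted p = 0.00671) and was called in every alternative run, with adjusted p up to 0.0393.

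Os02g0764500 was the light-harvesting locus with the most even level. Its group means were 5.29 ± 0.717 FPKM in WT in water, 5.67 ± 1.00 in WT in salt, 5.58 ± 0.841 in osmft1 in water and 7.62 ± 1.20 in osmft1 in salt. It passed no test, and its salt difference in WT was 0.08 (limma, adjusted p = 0.707).

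Os06g0320500 was chosen for description after its values were seen, because WT in salt had no read of it. It had 2.31, 10.9 and 6.60 FPKM in WT in water, 2.65, 4.22 and 4.27 FPKM in osmft1 in water and 0.899, 0.398 and 0.198 FPKM in osmft1 in salt. The groups summed to 317, 178 and 23 reads, against 0 in WT in salt, which allows up to 3 reads over that group. With the reads of the other group taken as observed, that floor put WT in salt at least 100.587-fold lower than WT in water. It put osmft1 in salt at least 7.707-fold higher than WT in salt. Those ratios cover the counting error of WT in salt only. The fall was called in both genotypes (limma, adjusted p = 8.47e-05 in WT and 0.00387 in osmft1). The difference between the genotypes in salt was not called (limma, adjusted p = 0.462). The locus passed the filter through water libraries alone, so the calls are no separate evidence of a fall.

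The 4 light-harvesting loci under the filter were nearly silent, with the exception of Os01g0720500. That locus had 1.21, 4.21 and 0.810 FPKM in WT in water, its highest libraries. Os01g0600900, Os04g0457000 and Os09g0439500 never exceeded 8 reads in a library.

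Of 8 photosystem subunits tested, 4 fell and 1 rose under salt in WT, against 28.2% lower and 27.7% higher over all tested IDs. In osmft1 2 fell and 2 rose, against 25.5% and 20.5%, which is near the background. Their sum over the 11 listed loci was 51.5 ± 16.5 FPKM (SD, n = 3) in WT in water, 26.7 ± 3.69 in WT in salt, 37.5 ± 9.03 in osmft1 in water and 31.4 ± 2.28 in osmft1 in salt.

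Os01g0869800 rose under salt. It had 0.599, 1.17 and 0.433 FPKM in WT in water and 3.57, 6.82 and 2.32 FPKM in WT in salt, and 0.994, 0.868 and 0.610 FPKM in osmft1 in water and 5.25, 5.88 and 6.43 FPKM in osmft1 in salt. All 6 salt libraries lay above all 6 water libraries. The rise was 1.53 ± 0.27 in WT (limma, adjusted p = 0.000596) and 1.91 ± 0.27 in osmft1 (adjusted p = 0.000211), while genotype differences of this locus were not called.

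Os07g0141400 fell in both genotypes. WT had 9.40, 14.4 and 17.9 FPKM in water and 3.65, 2.40 and 3.06 FPKM in salt. The osmft1 libraries had 7.50, 10.5 and 10.7 FPKM in water and 2.77, 2.42 and 2.47 FPKM in salt. Water and salt libraries were apart in each genotype. The fall was 1.85 ± 0.21 in WT (limma, adjusted p = 2.46e-05) and 1.56 ± 0.21 in osmft1 (adjusted p = 0.000161).

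Os01g0501800 had 11.2 ± 5.26 FPKM (SD, n = 3) in WT in water and 3.20 ± 0.645 in WT in salt, a fall of 1.43 ± 0.37 (limma, adjusted p = 0.00607). Os07g0544800 had 10.4 ± 3.32 and 5.40 ± 0.726 FPKM in the same groups and fell by 0.80 ± 0.28 (adjusted p = 0.0298). That call was lost in 6 alternatives, with an adjusted p of up to 0.124: no filter, the length trend removed, and without WT water replicate 2 or 3 or WT salt replicate 1 or 3. Os05g0560000 stood at 6.26 ± 1.63 and 4.77 ± 1.44 FPKM, and its difference of -0.34 had an adjusted p of 0.204. None of these 3 loci was called under salt in osmft1.

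Os04g0414700, chosen after its values were seen, was the other photosystem locus that rose in osmft1. It had 0, 0 and 0.201 FPKM in osmft1 in water and 0.835, 2.59 and 2.14 FPKM in osmft1 in salt, from sums of 2 and 52 reads. The rise of 1.37 ± 0.31 was called there (limma, adjusted p = 0.00378). The locus passed the filter through salt libraries alone, so the call is no separate evidence of a rise. Of the 3 photosystem loci under the filter, none exceeded 25 reads in a library.

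The tested electron transport locus, Os06g0101600, fell in both genotypes. It had 12.1, 18.7 and 20.2 FPKM in WT in water and 2.36, 2.68 and 2.34 FPKM in WT in salt. In osmft1 it had 10.4, 16.5 and 17.4 FPKM in water and 5.47, 6.84 and 7.59 FPKM in salt. The genotypes overlapped in water and were fully apart in salt, with osmft1 higher. The fall under salt was 2.35 ± 0.22 in WT (limma, adjusted p = 5.00e-06) and 1.03 ± 0.22 in osmft1 (adjusted p = 0.00247).

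The genes of the Rubisco small subunits and activase were at very low levels. The 3 loci on chromosome 12, Os12g0274700, Os12g0291100 and Os12g0292400, summed to 39, 14 and 7 reads over the 12 libraries and reached 0.604 FPKM at most. Os12g0274700 had 6, 8 and 9 reads in WT in water and 3, 1 and 2 in WT in salt, with no overlap, and 3, 5 and 1 in osmft1 in water and 1, 0 and 0 in osmft1 in salt, whose FPKM values overlapped. Summed over a group, its reads in salt were 3.65-fold lower than in water in WT (95% counting interval 1.44 to 11.0) and 8.61-fold lower in osmft1 (1.19 to 377), and in water they were 2.53-fold lower in osmft1 than in WT (1.13 to 6.21). These intervals compare reads of the libraries and not the conditions. Os12g0291100 had 6 and 8 reads in WT and osmft1 in water and 0 in both salt groups. Os11g0707000, the tested locus of the class, had 1.74, 1.33 and 1.38 FPKM in WT in water and 0.764, 0.469 and 0.319 FPKM in WT in salt, with no overlap, and fell by 0.72 ± 0.20 (limma, adjusted p = 0.00943). In osmft1 its libraries overlapped between 1.19, 0.499 and 0.906 FPKM in water and 0.587, 0.971 and 0.523 FPKM in salt (adjusted p = 0.616). Os11g0707000 passed the filter through water libraries alone, so its call in WT is no separate evidence of a fall.

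Among the 3 tested Calvin cycle enzymes, 1 locus fell, 1 rose and 1 did not pass under salt in WT. Over all tested IDs 28.2% were lower and 27.7% higher, so these counts are near the background. Os03g0129300 had 2.22, 3.65 and 4.42 FPKM in WT in water and 1.66, 0.725 and 1.15 FPKM in WT in salt, and fell by 1.01 ± 0.26 (limma, adjusted p = 0.0056). In osmft1 the water and salt libraries of Os03g0129300 overlapped, and its difference of -0.52 was not called (limma, adjusted p = 0.117). Os04g0234600 ran the other way, with 0.301, 0.309 and 0.699 FPKM in WT in water, 2.41, 1.03 and 1.13 in WT in salt, 0.429, 0.233 and 0.345 in osmft1 in water and 0.873, 1.19 and 1.63 in osmft1 in salt. All of its salt libraries lay above all of its water libraries, and the rise was called in WT (0.78 ± 0.23, limma, adjusted p = 0.0128) and in osmft1 (0.73 ± 0.23, adjusted p = 0.0230). The WT call was lost without WT salt replicate 1 (adjusted p = 0.0582), and the osmft1 call without osmft1 water replicate 2 or osmft1 salt replicate 3 (adjusted p up to 0.0885). This locus passed the filter through salt libraries alone, so the calls are no separate evidence of a rise. Os04g0459500 had group means of 0.488 and 0.879 FPKM in water and 0.233 and 0.824 FPKM in salt and was called in neither genotype. Os02g0698000, under the filter, had 35 reads in all and at most 7 in a library.

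**Figure D3:**
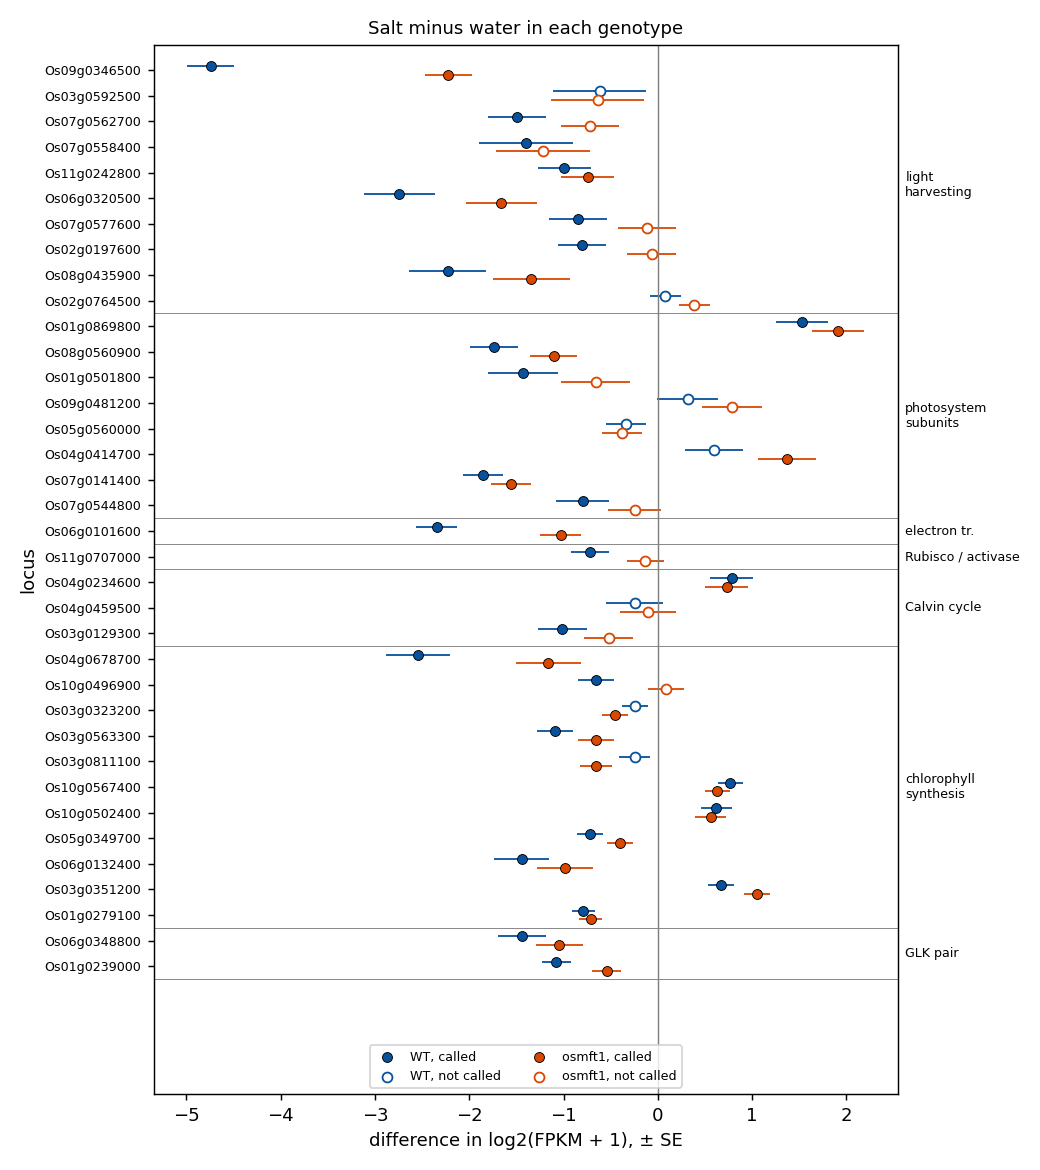
Salt minus water difference of each tested locus on the log2(FPKM + 1) scale in WT and in osmft1, with standard errors from limma (n = 3 per group) and filled points where the adjusted p is under 0.05. Light-harvesting points lie mostly below 0, with Os09g0346500 lowest at -4.74 in WT, and Os01g0869800 lies above 0 in both genotypes.

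Each of the 11 chlorophyll synthesis loci passed the filter. In WT 6 of the 11 fell and 3 rose under salt, against 28.2% lower and 27.7% higher over all tested IDs, so the count that rose is near the background. In osmft1 7 fell and 3 rose, against 25.5% and 20.5%. Their summed level was 208.2 ± 18.5 FPKM (SD, n = 3) in WT in water, 143.7 ± 11.7 in WT in salt, 204.4 ± 7.63 in osmft1 in water and 166.3 ± 23.7 in osmft1 in salt.

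Os01g0279100, the most abundant locus of the list, had 125, 122 and 138 FPKM in WT in water and 79.5, 66.4 and 75.1 FPKM in WT in salt. In osmft1 it had 118, 119 and 122 FPKM in water and 59.6, 76.8 and 83.1 FPKM in salt. Water and salt libraries were apart in each genotype. The genotypes overlapped in salt, and in water the lowest WT library all but met the highest of osmft1. It fell by 0.79 ± 0.12 in WT (limma, adjusted p = 0.00019) and by 0.71 ± 0.12 in osmft1 (adjusted p = 0.000644).

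Os10g0567400 rose under salt. WT had 24.0, 20.2 and 21.5 FPKM in water and 40.2, 33.5 and 40.4 FPKM in salt. The osmft1 libraries had 33.1, 31.8 and 33.6 FPKM in water and 41.6, 55.0 and 58.9 FPKM in salt. In water every osmft1 library lay above every WT library, as did every osmft1 salt library above every WT salt library. The rise was 0.77 ± 0.13 in WT (limma, adjusted p = 0.00047) and 0.63 ± 0.13 in osmft1 (adjusted p = 0.00259). The genotype difference in water, 0.57 ± 0.13, was called (adjusted p = 0.0103), but not with median-ratio scaling or after removal of the trend on gene length (adjusted p up to 0.0687). The genotype difference in salt was not called (limma, adjusted p = 0.0875).

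Os03g0351200 and Os10g0502400 also rose. Os03g0351200 had 2.89, 3.31 and 2.99 FPKM in WT in water, 5.20, 5.45 and 5.71 in WT in salt, 3.44, 4.22 and 3.43 in osmft1 in water and 7.21, 9.73 and 9.47 in osmft1 in salt. Os10g0502400 had 0.150, 0.308 and 0.495 FPKM in WT in water, 0.943, 1.01 and 1.10 in WT in salt, 0.528, 0.621 and 0.610 in osmft1 in water and 1.39, 1.54 and 1.11 in osmft1 in salt. For both loci the 2 genotypes were apart in each treatment, with osmft1 higher, and the water and salt libraries were apart within each genotype. Of all tested IDs, 30.8% were higher in osmft1 without overlap in water and 18.7% in salt. The genotype difference of Os10g0502400 was not called in water or salt (limma, adjusted p = 0.220 and 0.529). That of Os03g0351200 was not called in water (adjusted p = 0.269). The rise of Os03g0351200 was 0.67 ± 0.14 in WT (limma, adjusted p = 0.00144) and 1.06 ± 0.14 in osmft1 (adjusted p = 0.000106), and that of Os10g0502400 was 0.62 ± 0.16 (adjusted p = 0.00695) and 0.56 ± 0.16 (adjusted p = 0.0157). The osmft1 call of Os10g0502400 was lost without osmft1 salt replicate 2 or both osmft1 libraries numbered 1 (adjusted p up to 0.0838). Os10g0502400 passed the filter through salt libraries alone, so its calls are no separate evidence of a rise.

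Os05g0349700 had 13.6 ± 2.50 FPKM (SD, n = 3) in WT in water, 7.77 ± 0.527 in WT in salt, 13.5 ± 1.32 in osmft1 in water and 9.94 ± 0.545 in osmft1 in salt, and it fell in both genotypes (limma, adjusted p = 0.000853 in WT and 0.0305 in osmft1). The osmft1 call of Os05g0349700 was lost in 6 alternatives, with an adjusted p of up to 0.113: median-ratio scaling, and without both osmft1 libraries numbered 1, osmft1 water replicate 1 or 3, or osmft1 salt replicate 2 or 3. Os03g0563300 had 11.7 ± 2.09, 4.92 ± 0.728, 10.9 ± 1.61 and 6.65 ± 2.00 FPKM in the same order of groups and also fell in both (adjusted p = 0.000533 in WT and 0.0160 in osmft1). Its osmft1 call was lost in 4 alternatives, with an adjusted p of up to 0.0705: without osmft1 water replicate 3, osmft1 salt replicate 1 or 2, or both osmft1 libraries numbered 1.

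Os04g0678700, chosen after its values were seen, had the largest estimated fall of the chlorophyll synthesis loci in both genotypes. It had 2.86, 7.66 and 8.19 FPKM in WT in water and 0.050, 0.0971 and 0.347 FPKM in WT in salt. In osmft1 it had 2.67, 4.91 and 7.13 FPKM in water and 1.26, 1.41 and 1.90 FPKM in salt. Salt libraries lay below water libraries in both genotypes, and in salt every osmft1 library lay above every WT library. It fell by 2.54 ± 0.34 in WT (limma, adjusted p = 7.56e-05) and by 1.16 ± 0.34 in osmft1 (adjusted p = 0.0164, and 0.0687 without osmft1 water replicate 3), while the genotype difference in salt, 1.12 ± 0.34, was not called (adjusted p = 0.0844). The salt reads, 92 in osmft1 and 10 in WT, differed by a ratio of 9.25 (95% counting interval 4.81 to 19.9). This interval leaves out the scatter among libraries and does not compare the conditions.

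Both loci of the GLK pair, the transcription factors that activate light-harvesting and chlorophyll synthesis genes, fell under salt in both genotypes. Over all tested IDs, 28.2% fell in WT and 25.5% in osmft1. Their sum was 9.88 ± 3.25 FPKM (SD, n = 3) in WT in water, 3.13 ± 0.377 in WT in salt, 10.5 ± 0.401 in osmft1 in water and 5.48 ± 0.457 in osmft1 in salt. Os06g0348800 had 1.80, 1.91 and 4.34 FPKM in WT in water, 0.147, 0.429 and 0.328 FPKM in WT in salt, 3.55, 4.74 and 5.04 FPKM in osmft1 in water and 2.22, 1.44 and 1.29 FPKM in osmft1 in salt. Every osmft1 salt library stood above every WT salt library, while the genotypes overlapped in water. It fell by 1.44 ± 0.25 in WT (limma, adjusted p = 0.000488) and by 1.04 ± 0.25 in osmft1 (adjusted p = 0.00557).

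Os01g0239000 had 6.16, 6.13 and 9.29 FPKM in WT in water and 2.56, 2.84 and 3.10 FPKM in WT in salt. In osmft1 it had 6.53, 5.72 and 5.84 FPKM in water and 3.74, 3.60 and 4.15 FPKM in salt. The salt libraries of the genotypes were apart, with osmft1 higher, and the water libraries overlapped. It fell by 1.08 ± 0.15 in WT (limma, adjusted p = 0.000119) and by 0.54 ± 0.15 in osmft1 (adjusted p = 0.0139, and 0.0904 without both osmft1 libraries numbered 1).

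**Figure D4:**
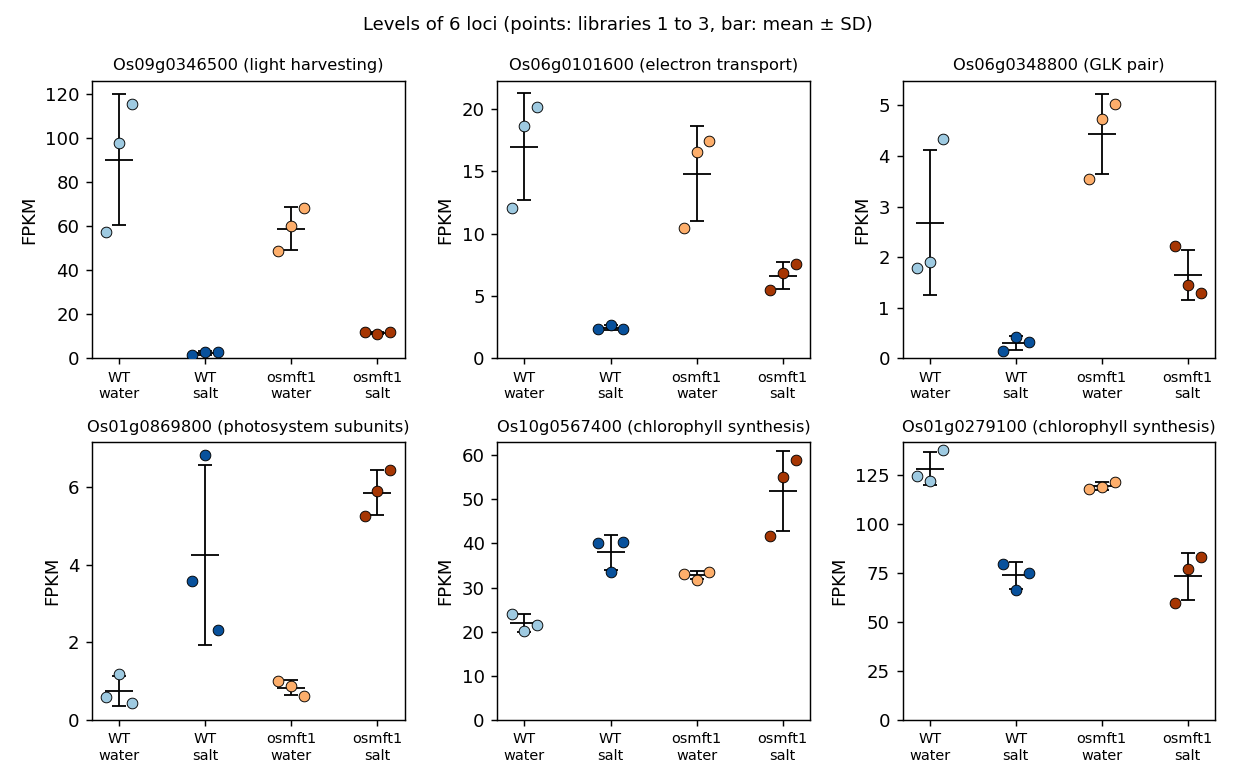
FPKM of 6 loci in each of the 12 libraries, by group, with the group mean. Os09g0346500, Os06g0101600 and Os06g0348800 were lowest in WT in salt, Os01g0869800 and Os10g0567400 were higher in salt, and Os01g0279100 was lower in salt in both genotypes.

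Compared within water, few of the loci were called as different between the genotypes. With limma, 3 of 36 (8.33%) were called, against 30.4% of all tested IDs, of which 20.0% were higher and 10.4% lower in osmft1. Os10g0567400 was higher in osmft1, and Os02g0197600 and Os10g0496900 were lower. The libraries did not overlap for 5 loci higher and 4 lower in osmft1, against 30.8% and 17.2% of all tested IDs. The median difference was -0.19 over the loci and 0.11 over all tested IDs. With median-ratio scaling, the background calls went from 65.8% higher to 43.7% higher, the median of all tested IDs shifted by -0.16 (log2) and the call of Os10g0567400 was lost. Without WT water replicate 1, 8 of the 36 loci were called, 7 of them lower in osmft1. Of all 22017 tested IDs, 6554 were then called, 4341 higher and 2213 lower in osmft1. Os10g0496900, chosen after its values were seen, had 8.84, 11.0 and 13.2 FPKM in WT in water and 4.35, 6.12 and 7.34 FPKM in osmft1 in water, apart without overlap, a difference of -0.80 ± 0.19 (limma, adjusted p = 0.0112, and 0.0616 without both osmft1 libraries numbered 1).

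Compared within salt, 4 of the 36 loci were higher in osmft1 and none was lower, against 5.45% of all tested IDs called, with 4.33% higher and 1.12% lower. The 4 made up 11.1% of the loci. The libraries did not overlap for 11 loci higher in osmft1 and 1 lower, against 18.7% and 6.43% of all tested IDs. The median difference was 0.31 over the loci and 0.07 over all tested IDs. With either median-ratio or upper-quartile scaling, 2 loci were called, and leaving out 1 library at a time gave 1 to 5, with 1 left without WT salt replicate 1 or osmft1 salt replicate 3.

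Os09g0346500 differed most, with 1.96 ± 0.25 (limma, adjusted p = 0.00215), and was called in every alternative run (adjusted p 0.000897 to 0.0220). Its reads in osmft1 in salt were 4.97 times those in WT in salt (95% counting interval 4.11 to 6.06). Os06g0101600 was higher by 1.13 ± 0.22 (adjusted p = 0.0136) and by a read ratio of 2.69 (2.05 to 3.54). Both counting intervals leave out the scatter among libraries. Without WT salt replicate 1 or osmft1 salt replicate 3 its call was lost, with an adjusted p of at most 0.0529.

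The other two calls were less stable. Os03g0351200 was higher by 0.59 ± 0.14 (limma, adjusted p = 0.0300), a call lost in 8 alternatives with an adjusted p of up to 0.105, both scalings and each left-out WT salt library among them. Os06g0348800 of the GLK pair was higher by 1.02 ± 0.25 (adjusted p = 0.0395), a call lost in 14 alternatives, with an adjusted p of up to 0.131. Each left-out WT salt library ended that call, as did the lack of a filter on low values and both scalings. The reads of Os06g0348800 in salt, 136 in osmft1 and 25 in WT, differed by a ratio of 5.47 (95% counting interval 3.55 to 8.75). That interval leaves out the scatter among libraries and does not compare the conditions.

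**Figure D5:**
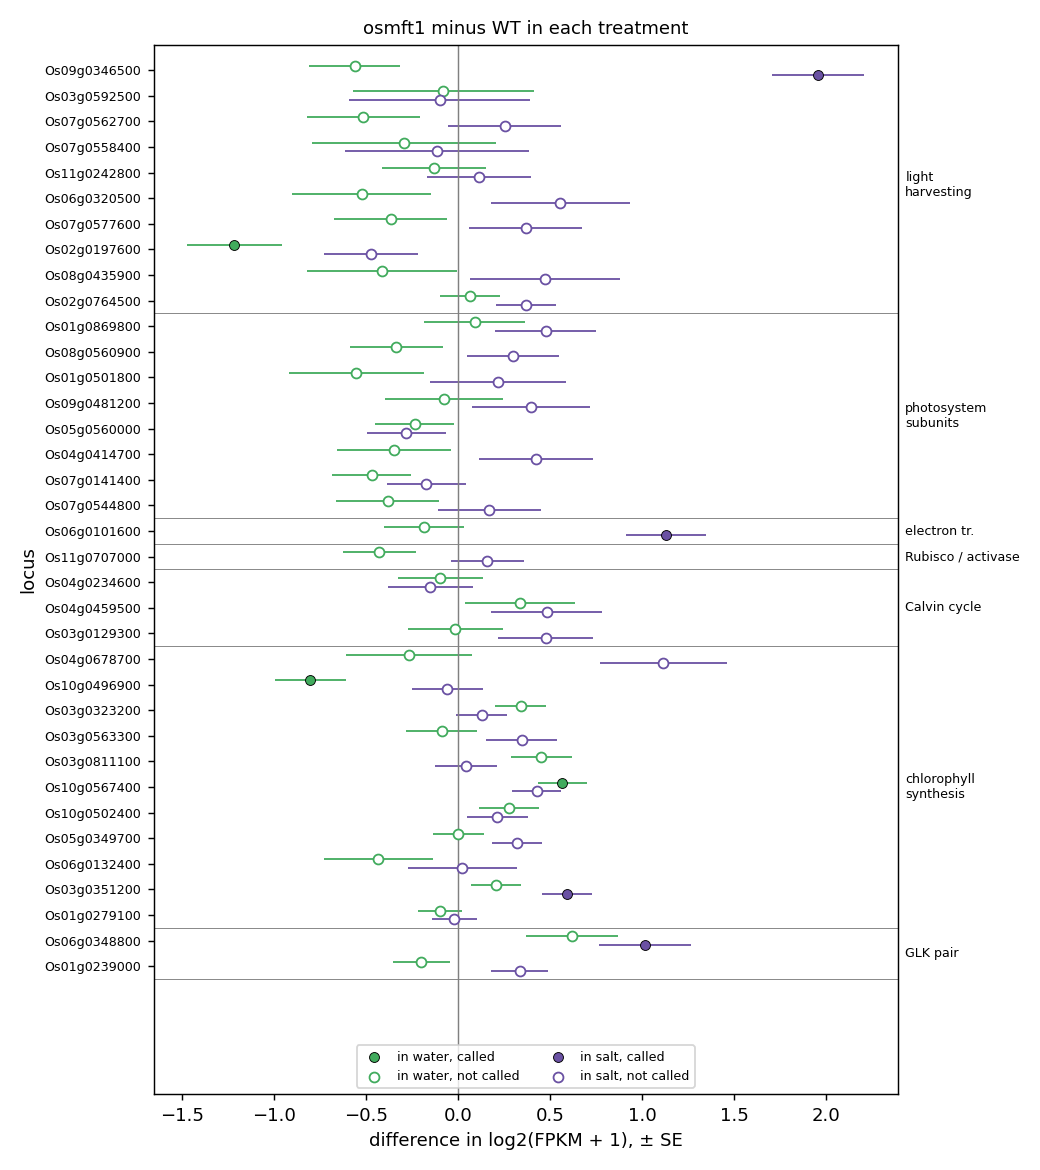
Difference of osmft1 minus WT for each tested locus on the log2(FPKM + 1) scale, in water and in salt, with standard errors from limma (n = 3 per group) and filled points where the adjusted p is under 0.05. In salt 28 of the 36 estimates lie above 0, and in water 26 lie below 0.

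Whether the salt response differed between the genotypes was tested as the interaction. It was above 0 for 29 of the 36 estimates, against 48% of all tested IDs. Above 0 means a smaller fall or a larger rise in osmft1, or a rise in osmft1 where WT fell. Of the 36 loci, 2 were called (5.56%, against 13.0% of all tested IDs, 6.92% above 0 and 6.12% below). The median estimate was 0.45 over the loci and -0.03 over all tested IDs. Os09g0346500 had an interaction of 2.52 ± 0.35 (limma, adjusted p = 0.00732) and was called in every alternative run. Os06g0101600 had 1.32 ± 0.31 (adjusted p = 0.0252), which was lost in 6 alternatives, 5 of them the removal of 1 library, with an adjusted p of at most 0.0638. Os04g0678700 had 1.38 and missed the threshold (adjusted p = 0.0766), though voom on the recovered reads called it (adjusted p = 0.0362). Leaving out 1 library at a time called 1 to 5 loci, with 5 without WT water replicate 1 and 3 without osmft1 water replicate 3. It called 1 without WT water replicate 2 or 3, WT salt replicate 3, osmft1 water replicate 1 or osmft1 salt replicate 3. For the remaining loci a difference between the genotypes' salt responses was not shown.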

How the data were processed

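RNA-seq libraries of rice seeds were prepared from total RNA, with the NEBNext Ultra kit per the labels' protocols. The deposited files give 1 value per gene ID and library, and no header names the unit; the steps within them are those of FPKM, which the authors are taken to have deposited. The submitters' processing notes list Bowtie2 2.2.3, HISAT2 2.1.0, the genome build IRGSP-1.0 and HTSeq 0.6.0, with no order. How FPKM was computed, with which gene models and with which strand setting, is not given in the sources used here.

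Low FPKM values rise in whole steps, which returned each library's reads: all values were whole within 0.003 reads, and at least 99.9971% of each implied total was recovered. Recovered reads served for depth, for 95% exact intervals, for the floor of 3 reads and for voom. With no molecular identifiers, intervals and floors cover counting error only. Replicates differed by a chi-square of 7.895 to 24.59 per degree of freedom, so no library repeats another.

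Titles gave the groups. IDs with at least 1 FPKM in 3 libraries (22017) were fitted with limma 3.58.1 in R 4.3.3 on log2(FPKM + 1), pseudocount 1, with 1 mean per group over 12 libraries (residual degrees of freedom 8) and with trend in the empirical Bayes step. Each comparison was adjusted by Benjamini-Hochberg over all tested IDs. A difference is that of log2(FPKM + 1) and so is smaller than the true log ratio where levels are low. The procedure was tested on simulated data.

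The members and lists were chosen with earlier results of these data known. Loci were named by class: all in a class of 4 or fewer, otherwise the 4 with the highest mean. The largest rise and fall among called loci in each comparison, and loci called against their class, were added. Endosperm and amylase marker lists were not used, because they had been listed for use where a file names those IDs, and none does. Alternatives were another pseudocount, other filters, 2 scalings, removal of the trend on gene length, voom, a replicate block, fits of 6 libraries, and leaving out each library or both osmft1 libraries numbered 1. Leaving out both water libraries numbered 1 was added after seeing the data. Tables were handled with Python 3.11.15, pandas 2.3.3 and numpy 2.4.6, and plots were drawn with matplotlib 3.10.9.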

Additional observations from a re-analysis of the deposited data

Results flagged for a closer look

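At 2 of the 36 tested loci (5.56%) the salt response differed between the genotypes by the test of the difference itself (limma interaction). That share was below the 13.0% called over all tested IDs. For Os09g0346500, a light-harvesting locus, the salt response of osmft1 minus that of WT was 2.519 (log2, SE 0.35, adjusted p = 0.00732), with a fall of 4.74 in WT and of 2.22 in osmft1. For Os06g0101600, of electron transport, it was 1.317 (SE 0.31, adjusted p = 0.0252), with a fall of 2.35 in WT and of 1.03 in osmft1. In both, every osmft1 salt library lay above every WT salt library and the water libraries of the genotypes overlapped. The first water library of each genotype was the lowest of its group at both loci. Without both of these libraries, the interaction was 2.68 (adjusted p = 0.0089) for Os09g0346500 and 1.31 (adjusted p = 0.0149) for Os06g0101600. Without the first osmft1 water library alone, it was 2.39 (adjusted p = 0.0207) and 1.10 (adjusted p = 0.0523), and the call of Os06g0101600 was lost. Over all alternatives run, the adjusted p was at most 0.0398 for Os09g0346500 and 0.0638 for Os06g0101600.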

How the results depend on the processing

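No tested locus changed direction while past the threshold in any of the alternatives run. Of the salt calls, 22 of 28 in WT and 12 of 22 in osmft1 were kept in every alternative that tested the locus. So were 1 of 3 genotype calls in water, 1 of 4 in salt and 1 of 2 interactions. A filter of 5 FPKM tested only 23 of the 36 loci and left 19 called under salt in WT and 14 in osmft1. For the genotypes in water, voom called 5 loci. For the genotypes in salt, median-ratio and upper-quartile scaling called 2 loci each, and the median of the loci was 0.16 with no filter and 0.41 with voom. For the interaction, 1 locus was called without both osmft1 libraries numbered 1, and 4 without both water libraries numbered 1, an alternative added after seeing the data. That alternative gave a median of -1.07 for salt in WT. Over all IDs, genotype calls in water were 3060 without both osmft1 libraries numbered 1 and 3740 without both water libraries numbered 1. Genotype calls in salt were 729 with median-ratio scaling, 772 with upper-quartile scaling, 330 in fits of 6 libraries, which give no interaction, and 655 without both osmft1 libraries numbered 1. Interaction calls were 1247 with no filter, 1840 with the length trend removed, 317 without both osmft1 libraries numbered 1 and 1715 without both water libraries numbered 1. Leaving out each library in turn called 23 to 29 loci for salt in WT, 17 to 25 for salt in osmft1, 3 to 8 for the genotypes in water, 1 to 5 for the genotypes in salt and 1 to 5 for the interaction. The medians then ran from -1.07 to -0.73, -0.58 to -0.44, -0.37 to -0.04, 0.22 to 0.34 and 0.32 to 0.63 in that order, and the counts over all IDs from 10722 to 12542, 8448 to 10128, 3295 to 6818, 482 to 1236 and 752 to 4202. The cause was not tested. Deviations from the group mean correlated at -0.191 to 0.241 between same-numbered libraries and at -0.249 to 0.326 between others. Between the water groups, the same-numbered value was 0.187 for replicate 1 (others -0.243 to 0.051). It was 0.241 for replicate 3 (others -0.207 to -0.026) and -0.035 for replicate 2. Whether the numbers pair the samples cannot be told from these values. With a replicate block, 28, 25, 4, 4 and 3 loci were called in the same order, and 12350, 10157, 6910, 1145 and 3263 IDs in all. Depth limits what can be said of the Rubisco loci on chromosome 12, at 2 to 9 reads in their highest library.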
